A study of Homo sapiens with 5 samples.

Results

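The genes described here encode the machinery that shortens, decaps and degrades messenger RNA: the deadenylases, the decapping factors, the LSM ring, the RNA exosome and the proteins that bind the poly(A) tail. They are a named list of 50 genes, matched by symbol, and all 50 were found among the 57773 gene identifiers of the deposited table. The cells were HCT116, a human colorectal carcinoma line, here carrying a knockout of Dicer per the series text, the enzyme that cuts precursor hairpins into mature microRNAs. Total RNA was measured in 5 libraries, 1 for each transfection, and the Dicer knockout background was shared by all of them. The transfections were a negative control, let7a-native, let7a-19A, miR17-native and miR17-13A, where the labels describe the 19A and 13A forms as methylated. The labels give neither the sequence of the negative control nor the kind of methyl group, nor the dose or the time after transfection. The study asked how methylated microRNAs act on the degradation of their target mRNAs, and the genes below encode the factors through which such degradation runs.

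A microRNA bound to Argonaute recruits the scaffold protein TNRC6, which in turn contacts the deadenylases PAN2-PAN3 and CCR4-NOT. These shorten the poly(A) tail, a step that TOB and BTG proteins can promote and that takes place on a tail coated with poly(A)-binding protein. A shortened mRNA is bound by the LSM1-7 ring and PATL1, loses its cap through DCP2 and its activators, and is digested from the 5′ end by XRN1. The exosome, helped in the cytoplasm by the SKI complex, digests RNA from the 3′ end.

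The RefSeq sequences of the 2 microRNAs (build GRCh38.p14) are shown because the seed, bases 2 to 8 counted from the 5′ end and printed in capitals, sets which 3′ untranslated regions (3′ UTRs) were counted as holding a site. Human let-7a-5p is encoded at 3 loci, one of them MIRLET7A1 on chromosome 9 (94175962 to 94175983, plus strand), and miR-17-5p by MIR17 on chromosome 13 (91350618 to 91350640, plus strand).
let-7a-5p: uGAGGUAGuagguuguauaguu
miR-17-5p: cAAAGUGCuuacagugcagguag
The 2 seeds differ, so the microRNAs have different predicted target sets. The numbers 19 and 13 in the labels were read as positions in these sequences. Both positions hold an adenosine and lie outside the seed.

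Sites in the decay genes themselves were searched in the longest 3′ UTR annotated in GENCODE 29, and the sequences below belong to members whose values are described later. A site of 7 letters either pairs with bases 2 to 8 (7mer-m8) or pairs with bases 2 to 7 and has an A after them (7mer-A1). An 8mer has both. The matched letters are in capitals. The first sequence is the only let-7a 8mer in the 50 genes, and the next 3 are miR-17 8mers.
CNOT2, let-7a 8mer: ttatgtcttaaaaaCTACCTCA
CNOT6L, miR-17 8mer: tttaaacttttcatGCACTTTA
XRN1, miR-17 8mer: gtgtatcaaattgtGCACTTTA
LSM5, miR-17 8mer: atacttttctttggGCACTTTA
CNOT4 holds 2 miR-17 7mer-m8 sites whose matches begin 8 bases apart, shown because the second window overlaps the first.
CNOT4, first site: gttctctctcttttGCACTTTt
CNOT4, second site: tcttttgcacttttGCACTTTc

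Values are TPM, a length-scaled share of each library, rounded by the authors to 1 decimal. The sequencing depth is unknown, so no counting interval is given, and with 1 library in each group no difference has a replicate check and none was tested. Differences were taken on the log2(TPM + 1) scale as the first-named library minus the other. A filter at a mean of 1 TPM left 14177 genes, and all 50 decay genes passed it. A size limit of 0.32 on this log2 scale marked larger differences, and it is not a test. Fold values below are ratios of TPM + 1, and 5 values in a row run from the control through native let-7a, its methylated form, native miR-17 and its methylated form. Epithelial markers fit the labelled line in part: EPCAM, CDH1, KRT8, KRT18, KRT19 and CDX2 were present in every library, with EPCAM from 524.4 to 618.8 TPM, while VIL1 and CDX1 were listed at 0 in all 5. The summed markers of mesenchymal cells lay between 14.7 and 22.2 TPM. Most of this sum was COL1A1 (10.8 to 16.3 TPM) and VIM (3 to 5.3 TPM), while DCN was listed at 0 in every library. The markers of blood and immune cells summed to between 4.2 and 5.5 TPM, mostly LYZ (3.7 to 4.4 TPM), with PTPRC at 0. Those of endothelial cells summed to between 0.3 and 0.8 TPM. In bulk RNA, fewer cells of a type and less RNA per cell cannot be told apart.

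The decay genes were detected at steady levels. Their summed TPM was 5120.7 in the control, 5119.0 and 4946.6 in the native and methylated let-7a libraries, and 4975.7 and 4973.0 in the native and methylated miR-17 libraries. PABPC1 alone made up about 2392.9 to 2557.8 TPM of each sum. The highest of the 5 values of TPM + 1 exceeded the lowest by a median of 1.26-fold over the 50 genes, against 1.34-fold over all genes tested. The largest difference of any of the 50 genes, in any of the 6 comparisons, was 0.79 for PARN.

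Against the control, native let-7a had 8 of the 50 genes higher past the size limit (16%, with 12.9% of all genes tested) and 2 lower (4%, with 11.8%). Methylated let-7a had 3 higher (6%, with 9.03%) and 1 lower (2%, with 10.3%). Native miR-17 had 10 higher (20%, with 18.0%) and 6 lower (12%, with 15.6%), and methylated miR-17 10 higher (20%, with 15.1%) and 9 lower (18%, with 25.3%). The shares of higher genes lay within 5 percentage points of those of all genes in these 4 comparisons, and the shares of lower genes lay below them. At a larger limit of 1.5-fold, native let-7a had 1 gene higher (4.28% of all genes) and 0 lower (3.91%), and methylated let-7a 1 higher (3.39%) and 0 lower (3.03%). Native miR-17 had 3 higher (6.67%) and 1 lower (6.07%), and methylated miR-17 3 higher (5.44%) and 2 lower (10.2%). These genes were PARN in all 4, PAN2 and SKIV2L with native miR-17, EXOSC1 and EXOSC8 with methylated miR-17, PABPC4 with both miR-17 forms and CNOT6L with the methylated one. The median difference of the 50 genes was 0.02 and -0.06 for the native and methylated let-7a forms and 0.06 and -0.08 for those of miR-17, beside 0.0, -0.04, 0.02 and -0.06 over all genes. The 4 comparisons share the single control library, so they are not independent of each other.

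**Figure D1:**
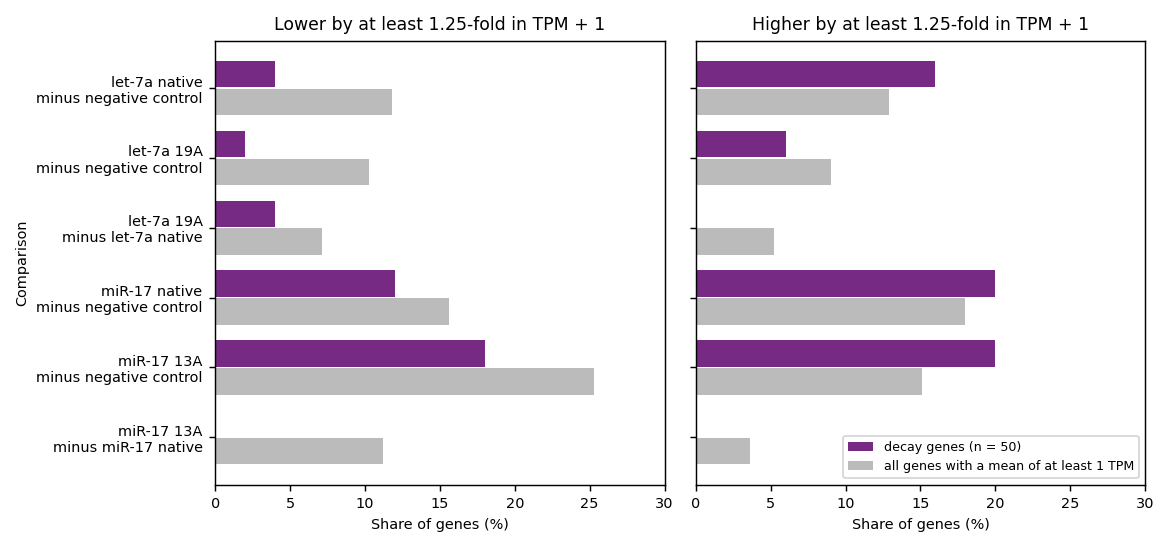
Share of genes (%) lower (left) and higher (right) past the log2 size limit of 0.32, for the 50 decay genes (purple) and all 14177 genes tested (grey), in the 6 comparisons of 1 library with 1. The longest purple bars stand at 20%, for higher genes in both miR-17 libraries, and 0 decay genes passed in either direction between the miR-17 forms.

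CCR4-NOT, the main cytoplasmic deadenylase, was represented by 10 genes, most of them slightly below the control in every microRNA library. Native let-7a had 8 of 10 lower (47.9% of all genes were) and methylated let-7a 9 of 10 (56.1%). Native miR-17 had 7 of 10 lower (46.5%) and methylated miR-17 8 of 10 (56.3%). The medians were small, at -0.07, -0.09, -0.17 and -0.21. Median centring moved these counts by at most 1 gene. Referred to the mean of the 2 miR-17 libraries, 4 of 10 were lower with native (44.9% of all genes were) and 4 of 10 with methylated let-7a (50.6%). Referred to the mean of the 2 let-7a libraries, 6 of 10 were lower with native (44.1%) and 7 of 10 with methylated miR-17 (57.0%).

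CNOT1, the scaffold on which the complex assembles and its most abundant member in each library, had 109.7 TPM in the control, 97.1 and 102.3 with native and methylated let-7a, and 93.3 and 83.3 with native and methylated miR-17. The control was the highest of the 5 and methylated miR-17 the lowest, 1.31-fold below it in TPM + 1. CNOT2 and CNOT3, which form a module that binds the scaffold, stayed between 16.1 and 19.9 TPM and between 40.6 and 45.9 TPM. CNOT2, which carries the let-7a 8mer printed above, was lowest with native let-7a (16.1 TPM, log2 difference -0.29) and next lowest with methylated let-7a (17.1 TPM, -0.21).

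The catalytic subunits differed among themselves. CNOT6L, an exonuclease of the EEP family, had 10.3 TPM in the control, 10.8 and 11.4 with native and methylated let-7a, and 6.9 and 6.4 with native and methylated miR-17. The 2 miR-17 libraries lay below the other 3 and did not overlap them. The differences from the control were -0.52 with native and -0.61 with methylated miR-17, and -0.61 and -0.71 when the mean of the let-7a libraries was the reference. Its paralog CNOT6 had 57.2, 54.1, 54.6, 62.3 and 54.3 TPM in the same order of libraries, with native miR-17 the highest. The TPM ratio of CNOT6 to CNOT6L was thus 5.55 in the control, 5.01 and 4.79 with the let-7a forms, and 9.03 and 8.48 with the miR-17 forms.

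CNOT7 and CNOT8, alternative DEDD-family deadenylases, kept a ratio between 1.18 and 1.32 in the 5 libraries. CNOT7 had 86.1 TPM in the control and 72.2 to 84.7 in the others, and CNOT8 71.4 and 58.1 to 68.3. For both, methylated miR-17 was the lowest library. CNOT4, a ubiquitin ligase associated with the complex and the holder of the paired miR-17 sites, had 14.6, 13.4, 14.0, 12 and 10.7 TPM. Its miR-17 values lay below the others, with a difference of -0.26 for native and -0.42 for methylated miR-17. CNOT10 (27.4 to 33.0 TPM) and CNOT11 (58.2 to 77.3 TPM), which form a module at the N-terminal end of CNOT1, were, like CNOT2, higher in both miR-17 libraries than in both let-7a libraries.

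PARN, outside CCR4-NOT, stood farthest above the control of the 50 genes in each microRNA library. PABPC4, described below, stood farthest below it in both miR-17 libraries. PARN, a poly(A)-specific ribonuclease with roles in the maturation of noncoding RNAs, had 21.1 TPM in the control, 37.1 and 32.2 with native and methylated let-7a, and 36.9 and 36.4 with native and methylated miR-17. The control stood apart from the 4 microRNA libraries, which lay above it by 0.79, 0.59, 0.78 and 0.76 (log2). PARN has no site for either microRNA in its longest annotated 3′ UTR, and among the microRNA libraries it ranged only from 32.2 to 37.1 TPM.

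PAN2, the nuclease of the PAN2-PAN3 pair, had 8.0, 12.3, 10.1, 13.1 and 12 TPM. It too was lowest in the control, by 1.48-fold against native let-7a and 1.57-fold against native miR-17. PAN3, which recruits PAN2 to the mRNA, went the other way, with 24.2, 20.3, 22.4, 18.0 and 16.3 TPM. The control was the highest library and the miR-17 forms the lowest, at differences of -0.41 and -0.54. The TPM ratio of PAN3 to PAN2 was therefore 3.02 in the control, 1.65 and 2.22 with the let-7a forms, and 1.37 and 1.36 with the miR-17 forms. Of all genes tested, 21.2% were lowest in the control and 26.5% highest in it. Of the 50 decay genes these were 13 (26%) and 18 (36%).

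**Figure D2:**
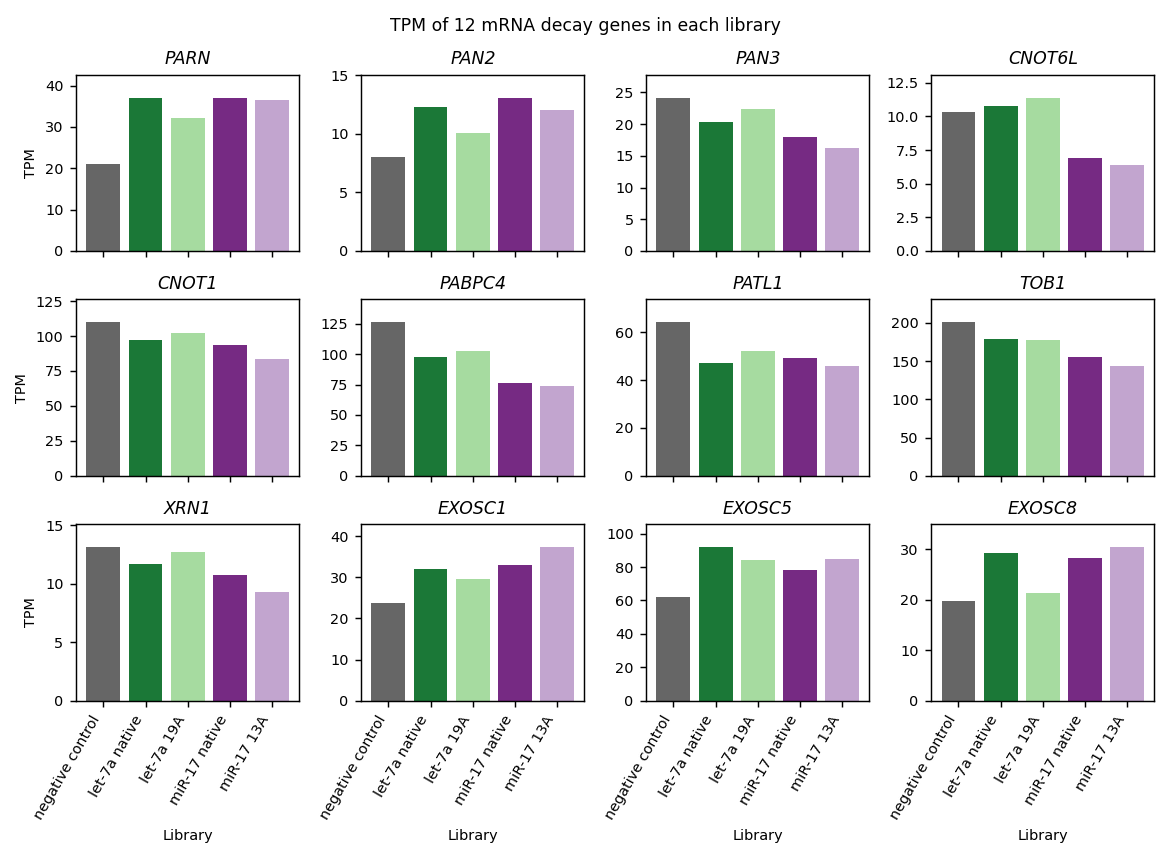
TPM in each of the 5 libraries (bars, from 0, 1 library each) for 12 of the 50 decay genes. PARN and PAN2 are lowest in the negative control (21.1 and 8.0 TPM), and CNOT6L and PABPC4 are lowest in the 2 miR-17 libraries (6.9 and 6.4, 76.3 and 73.8 TPM).

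Decapping factors and the 5′ exonucleases, 10 genes, had no common direction. Their median difference from the control was 0.0 for both let-7a forms, 0.07 for native miR-17 and -0.12 for its methylated form. DCP2, the decapping enzyme, had 32.0, 34.2, 33.3, 35.9 and 29.5 TPM. Its activator DCP1A had 35.6, 42.3, 37.9, 31.1 and 28.5 TPM, so that both let-7a libraries lay above the control and both miR-17 libraries below it. The paralog DCP1B had 15.7, 15.7, 16.2, 19.2 and 17.2 TPM and was highest with miR-17. The ratio of DCP1A to DCP1B was 2.27 in the control, 2.69 and 2.34 with let-7a and 1.62 and 1.66 with miR-17.

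PATL1 bridges the LSM ring to the decapping enzyme. With native let-7a it stood farthest below the control of the 50 genes, at 47.1 against 64.1 TPM (1.35-fold). It had 52.2 TPM with methylated let-7a, 49.2 with native and 45.9 with methylated miR-17, so the control was again the highest library. XRN1, the cytoplasmic 5′ exonuclease, had 13.1, 11.7, 12.7, 10.7 and 9.3 TPM, lowest with methylated miR-17 (1.37-fold below the control). XRN1 holds a miR-17 8mer, a 7mer and 2 let-7a 7mers. XRN2, its nuclear relative, had 182.7, 173.5, 162.0, 202.7 and 197.0 TPM and was above the control in both miR-17 libraries. The ratio of XRN2 to XRN1 was 13.9 in the control and 21.2 with methylated miR-17.

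The helicase DDX6, which activates decapping and represses translation, stayed between 59.7 and 69.5 TPM. The scaffolds EDC3 (26.7 to 35.8 TPM) and EDC4 (41.6 to 45.7 TPM) were both highest with native miR-17, where EDC3 was 1.27-fold above the control. EIF4ENIF1, also called 4E-T, which carries the cap-binding protein eIF4E into decay complexes, had 16.4 to 20.4 TPM with the control highest.

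The LSM1-7 ring binds the shortened 3′ end, and 6 of its 7 genes were above the control with native let-7a (49.9% of all genes were) and 5 of 7 with the methylated form (41.0%; 6 of 7 after median centring). In each miR-17 library 5 of 7 were above it (51.6% of all genes with the native form, 42.1% with the methylated). LSM4 had 120.2, 142.4, 131.5, 157.3 and 166.6 TPM. LSM7 had 85.6, 111.3, 98.3, 107.9 and 109.6 TPM, and LSM3 23.4, 26.0, 24.1, 29.2 and 31.7 TPM. The control was the lowest library for LSM2, LSM3, LSM4 and LSM7 (4 of 7, beside 21.2% of all genes). LSM4 with methylated miR-17 was 1.38-fold above the control. LSM6 was below the control in all 4 microRNA libraries, at 23.4 TPM in the control and 18.5 with methylated let-7a (-0.32). LSM1, the subunit that sets this ring apart from the nuclear LSM2-8 ring, stayed between 57.1 and 65.7 TPM. Referred to the miR-17 libraries, 3 of 7 were lower with native (44.9% of all genes were) and 5 of 7 with methylated let-7a (50.6%). For the methylated form most of the ring was thus above the control but below the miR-17 libraries. Referred to the let-7a libraries, 2 of 7 were lower with native (44.1% of all genes were) and 2 of 7 with methylated miR-17 (57.0%). Within a library the highest member, LSM2, exceeded the lowest by 6.54-fold in the control and 9.51-fold with methylated let-7a.

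BTG1, TOB1 and TOB2, antiproliferative proteins that bring CCR4-NOT to mRNAs, were all highest in the control, as 26.5% of all genes tested were. Referred to the miR-17 libraries instead, 1 of 3 was lower with native (44.9% of all genes were) and 0 of 3 with methylated let-7a (50.6%). Referred to the let-7a libraries, 2 of 3 were lower with native (44.1%) and 3 of 3 with methylated miR-17 (57.0%). TOB1 had 200.5, 179.4, 177.3, 155.9 and 144.0 TPM, BTG1 93.5, 80.3, 75.4, 69.6 and 70.7 TPM, and TOB2 80.5, 68.1, 74.9, 77.9 and 66.2 TPM. For TOB1 and BTG1 the miR-17 libraries were also below both let-7a libraries, whereas the TOB2 values overlapped. The differences of TOB1 from the control were -0.36 with native and -0.47 with methylated miR-17, and those of BTG1 were -0.42 and -0.40. BTG1 holds 1 miR-17 7mer and 1 let-7a 7mer, TOB2 1 let-7a 7mer, and TOB1 none.

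The poly(A)-binding proteins coat the tail that the deadenylases remove, and the 2 genes differed. PABPC1, the most abundant of the 50 genes, had 2557.8, 2505.1, 2452.4, 2392.9 and 2467.6 TPM, a spread of 1.07-fold. PABPC4 had 126.0, 97.3, 102.4, 76.3 and 73.8 TPM. It stood farthest below the control of the 50 genes in both miR-17 libraries, by 1.64-fold with native and 1.70-fold with methylated miR-17. It was also below the control in both let-7a libraries, though above the miR-17 libraries in both. Its longest 3′ UTR, of 320 nucleotides, holds no site for either microRNA. The TPM ratio of PABPC1 to PABPC4 was 20.3 in the control, 25.7 and 23.9 with let-7a and 31.4 and 33.4 with miR-17. How the authors assigned reads among PABPC1, its relatives and its processed pseudogenes is not given in the sources used here, so the level of PABPC1 is uncertain.

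The exosome core is a ring of 6 subunits (EXOSC4 to EXOSC9) with a cap of 3 (EXOSC1 to EXOSC3), and 7 of these 9 genes were above the control with native let-7a (49.9% of all genes were) and with native (51.6%) and methylated miR-17 (42.1%). With methylated let-7a 3 of 9 were above it (41.0%), and 5 of 9 after median centring. EXOSC5 had 62.2, 91.8, 84.4, 78.0 and 85.1 TPM, EXOSC1 23.7, 32.1, 29.7, 32.9 and 37.3 TPM, and EXOSC8 19.7, 29.2, 21.4, 28.3 and 30.4 TPM. For these 3 of the 9 the control was the lowest library, as it was for 21.2% of all genes. EXOSC5 was 1.47-fold higher with native let-7a and EXOSC1 1.55-fold higher with methylated miR-17. EXOSC8 with methylated let-7a was close to the control. EXOSC2 (25.0 to 27.2 TPM), EXOSC3 (24.0 to 29.5 TPM) and EXOSC7 (25.6 to 31.2 TPM) had a narrow range. EXOSC4 was highest with methylated miR-17 (95.6 TPM, 75.2 to 83.9 in the others), EXOSC6 lowest there (26.6 TPM, 30.6 to 36.7 in the others), and EXOSC9 was lowest with methylated let-7a (17.4 TPM, 20.2 to 22.0 in the others). Referred to the miR-17 libraries, 5 of the 9 were lower with native (44.9% of all genes were) and 6 with methylated let-7a (50.6%). Referred to the let-7a libraries, 3 of the 9 were lower with native (44.1%) and 3 with methylated miR-17 (57.0%).

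The nucleases that work on this ring were DIS3, DIS3L and EXOSC10. DIS3, the main nuclear exosome enzyme, had 26.6 TPM in the control and 31.6 to 33.8 in the others. DIS3L, its cytoplasmic counterpart, had 17.8, 22.8, 22.5, 18.3 and 18.5 TPM, higher in the let-7a libraries than in the other 3. EXOSC10, a nuclear enzyme, stayed between 50.1 and 54.4 TPM. SKIV2L, the helicase of the SKI complex, had 9.2, 12.1, 10.8, 14.5 and 12.8 TPM, 1.52-fold above the control with native miR-17, while its partner TTC37 ranged from 19.8 to 23.3 TPM. UPF1, the helicase of nonsense-mediated decay, had 59.9, 56.6, 51.2, 57.2 and 53.6 TPM and was highest in the control.

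**Figure D3:**
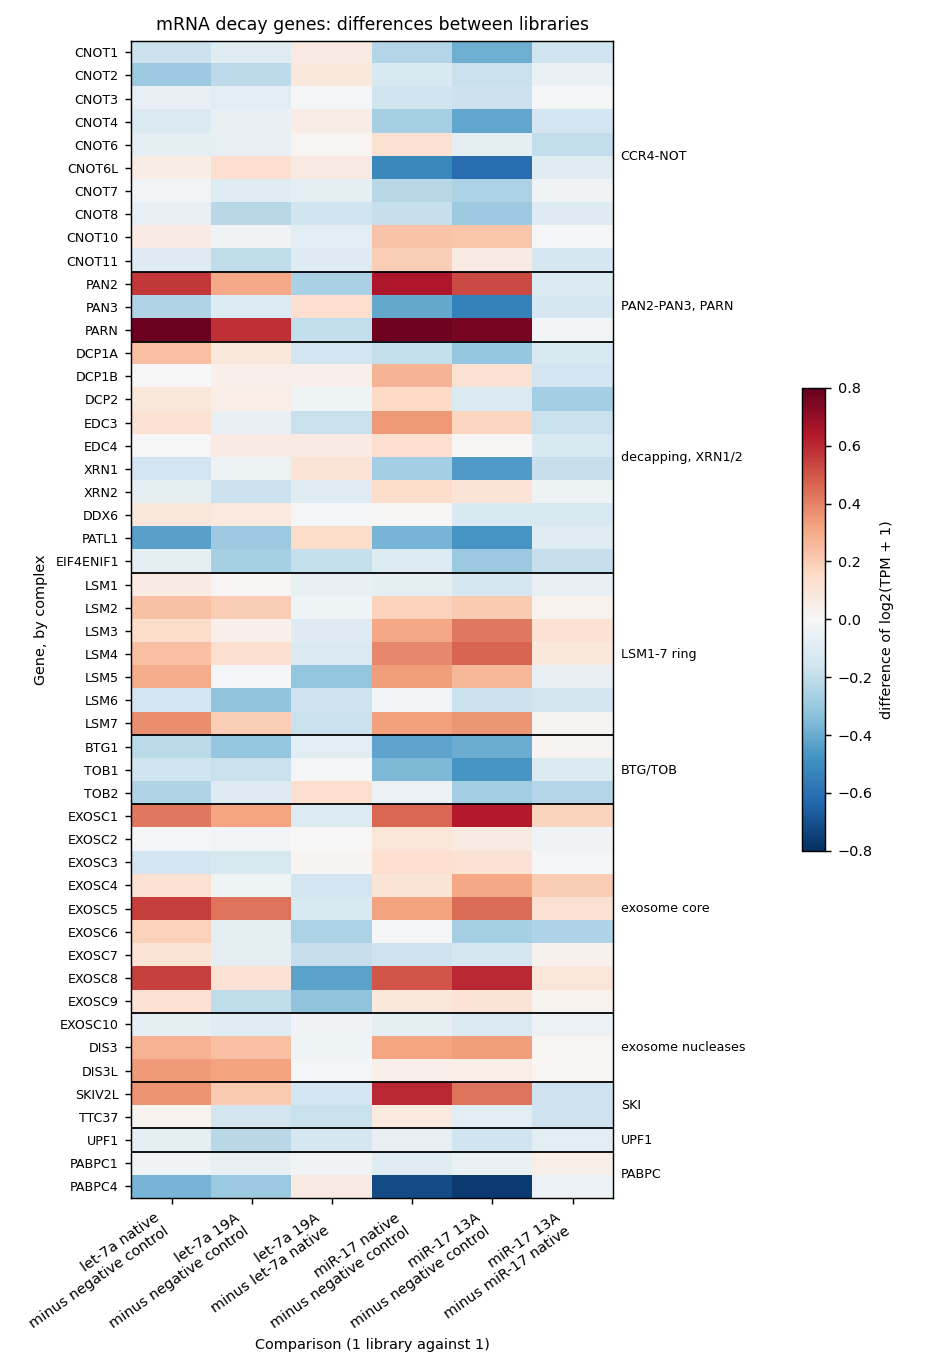
Difference of log2(TPM + 1) for each of the 50 decay genes (rows, by complex) in the 6 comparisons of 1 library with 1 (columns), with red for higher and blue for lower in the first library. PARN is the darkest red in the control comparisons (0.79 with native let-7a) and PABPC4 the darkest blue (-0.76 with methylated miR-17), and the columns that compare methylated with native forms are pale.

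Methylated against native let-7a had 0 of the 50 genes higher past the size limit (5.24% of all genes) and 2 lower (7.15%), and 0 past 1.5-fold (2.24% of all genes were higher and 2.39% lower). These were EXOSC8, with 21.4 against 29.2 TPM (1.35-fold), and EXOSC9, with 17.4 against 22.0 TPM (-0.32). In direction alone, 37 of 50 were lower with the methylated form, beside 57.1% of all genes, and 13 higher, beside 39.8%. After median centring 30 of 50 were lower. All 7 LSM genes were lower, also after centring, with a median of -0.11 and the lowest difference for LSM5 (26.1 against 32.6 TPM). Of the exosome core 8 of 9 were lower, 7 of 9 after centring, with a median of -0.16. CCR4-NOT was split, with 5 of 10 lower (4 of 10 after centring). PATL1 (52.2 against 47.1 TPM), PAN3 (22.4 against 20.3 TPM) and TOB2 (74.9 against 68.1 TPM) had the highest differences of the 50. Each of these 3 was lower with native let-7a than in the control, and the 2 comparisons share the native let-7a library.

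Methylated against native miR-17 had 0 of the 50 genes lower past the size limit (11.2% of all genes) and 0 higher (3.63%), and so also 0 past 1.5-fold (2.72% of all genes were lower and 1.57% higher). In direction, 36 of 50 were lower with the methylated form, beside 69.0% of all genes, whose median was -0.09, and 14 higher, beside 28.4%. After median centring 24 of 50 were lower. All 10 CCR4-NOT genes and all 10 decapping genes were lower, 6 and 9 of them after centring, with medians of -0.10 and -0.14. The lowest were DCP2 (29.5 against 35.9 TPM, -0.27) and EXOSC6 (26.6 against 31.8 TPM, -0.25). The highest were EXOSC4 (95.6 against 83 TPM, 0.20) and EXOSC1 (37.3 against 32.9 TPM, 0.18), and 6 of 9 exosome core genes and 4 of 7 LSM genes were higher, 8 and 6 of them after centring. The median of the LSM genes was 0.02 here and that of the exosome core 0.03, beside -0.11 and -0.16 for methylated against native let-7a. Whether these values differ by more than libraries vary was not tested.

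A comparison that leaves out the control sets the 2 miR-17 libraries against the 2 let-7a libraries. Both miR-17 values lay above both let-7a values for 13 of the 50 genes (26%, with 27.1% of all genes tested) and below both for 15 (30%, with 29.8%), so the 50 genes together did not stand out. The mean difference was -0.66 for CNOT6L, -0.42 for DCP1A, -0.41 for PABPC4 and -0.30 for PAN3, the 4 lowest, and 0.29 for CNOT11, 0.27 for LSM3 and 0.27 for EXOSC3, the 3 highest. For PARN it was 0.08 and for PAN2 0.16. Their differences from the control were positive for both microRNAs, but all of them rest on the single control library. That of PAN2 with methylated let-7a (0.30) was within the size limit. Of CCR4-NOT, 5 of 10 lay below (CNOT1, CNOT3, CNOT4, CNOT6L and CNOT7) and 3 above (CNOT2, CNOT10 and CNOT11).

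Of the 50 genes, 9 held a let-7a site (18%, beside 17.9% of the genes searched). Of these 9, 8 were below the control with native let-7a and 8 with methylated let-7a, with medians of -0.12 and -0.10, beside 0.09 and -0.03 for the 41 genes with no site. Over all genes searched, 1344 and 1407 of the 2173 with a let-7a site were lower in these comparisons. The exception was CNOT6L, with a 7mer and 10.8 and 11.4 against 10.3 TPM. In all 9 genes both differences stayed within the size limit. Over all genes searched the medians were -0.07 and -0.07 with a site and 0.02 and -0.04 without. The 9 genes include 6 of CCR4-NOT, so site and complex cannot be told apart.

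A miR-17 site was present in 17 of the 50 genes (34%, beside 31.4% of the 12121 genes searched). The median with native miR-17 was 0.01 for the 33 genes with no site, 0.12 for the 13 with 7mer sites and -0.25 for the 4 with an 8mer (CNOT6L, CNOT7, XRN1 and LSM5), beside 0.05, -0.05 and -0.28 over all genes searched. With methylated miR-17 the medians were -0.05, -0.07 and -0.35, beside -0.02, -0.18 and -0.43 over all genes searched. The 5 genes with 2 or more miR-17 sites were CNOT4, DCP1B, DCP2, XRN1 and DIS3. Their median was 0.16 with native miR-17 (3 of 5 higher) and -0.11 with methylated miR-17 (2 of 5 higher). Over all genes searched the medians of this class were -0.11 and -0.25. Among the 8mer genes CNOT6L was the lowest and LSM5 was higher than the control, with 33.4 and 31.8 against 26.3 TPM. The LSM5 match lies close to the end of its annotated 3′ UTR, which has 1929 nucleotides.

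Among the decay genes, those with a longer 3′ UTR tended to have lower values with methylated than with native miR-17. Across the 50 genes, Spearman's rho between 3′ UTR length (54 to 7626 nucleotides) and the difference between methylated and native miR-17 was -0.50, and it was -0.34 across the 12121 genes searched. Genes share their library and are not independent, so no p-value is given. The rho was -0.26 for native and -0.39 for methylated miR-17 against the control, -0.21 and -0.07 for the 2 let-7a forms, and 0.25 for methylated against native let-7a. The 2 methylated forms thus had opposite signs relative to their native forms, as they did across the 12121 genes searched (0.18 for let-7a, -0.34 for miR-17). Across those genes the rho against the control was -0.18 and -0.09 for native and methylated let-7a. It was -0.15 and -0.28 for native and methylated miR-17.

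**Figure D4:**
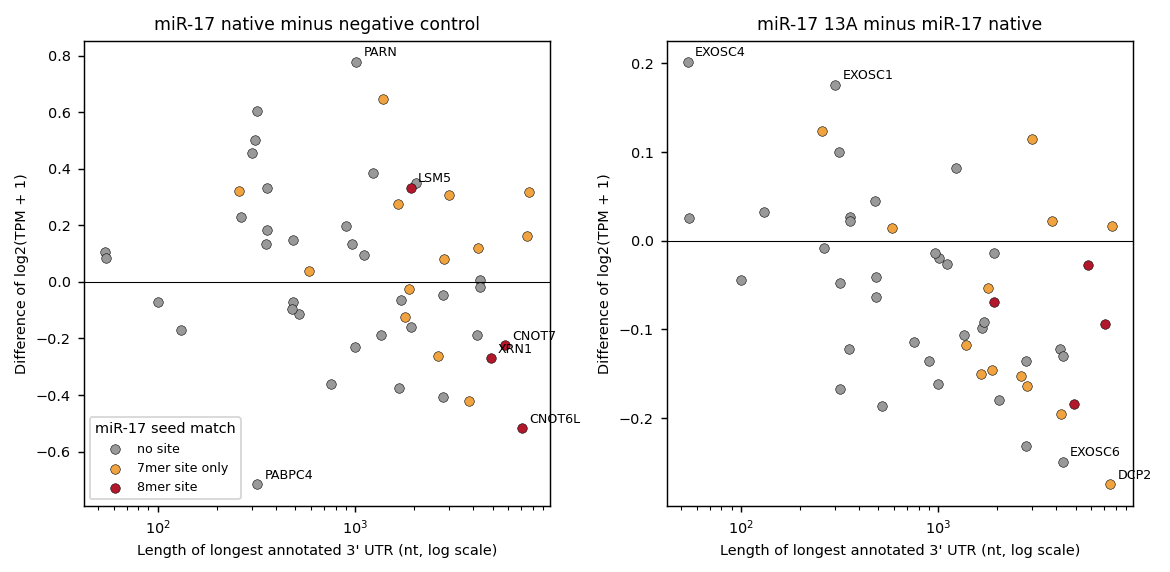
Difference of log2(TPM + 1) against the length of the longest annotated 3′ UTR (nucleotides, log scale) for the 50 decay genes, for native miR-17 minus the control (left) and methylated minus native miR-17 (right), coloured by miR-17 site. On the right, values run from 0.20 (EXOSC4, 54 nucleotides) to -0.27 (DCP2, 7486 nucleotides), with Spearman's rho of -0.50.

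Other genes of mRNA decay came from 5 lists (further deadenylation factors, further decapping factors, exosome cofactors, nonsense-mediated decay and sequence-specific adaptors), of which 66 genes passed the filter. Against the control, 9 of 66 were higher and 2 lower past the size limit with native let-7a (12.9% and 11.8% of all genes), and 5 and 1 with methylated let-7a (9.03% and 10.3%). With native miR-17 6 were higher and 5 lower (18.0% and 15.6% of all genes), and with its methylated form 4 and 15 (15.1% and 25.3%). Farthest below the control with native miR-17 was BTG3, a relative of BTG1. BTG3 had 58.4 TPM in the control, 66.3 and 62.4 with the let-7a forms and 24.4 and 29.2 with the miR-17 forms. BTG3 holds 1 miR-17 8mer, and TNKS1BP1, a protein that binds CCR4-NOT, holds 1 miR-17 7mer. TNKS1BP1 had 63.9, 65.0, 63.8, 37.1 and 32.6 TPM. TENT4A, a poly(A) polymerase that can extend and protect tails, had 27.6, 22.0, 22.7, 16.8 and 14.9 TPM with no site for either microRNA. In these 3 genes both miR-17 libraries lay below the other 3. With the control left out, both miR-17 values lay below both let-7a values in 25 of the 66 genes (37.9%), beside 29.8% of all genes tested.

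PABPC1L and NOCT, also of these lists, differed by at least 1.5-fold in some comparison. PABPC1L, a poly(A)-binding protein known from oocytes, had 4.0 TPM in the control and 6.8 to 8.2 in the 4 microRNA libraries. NOCT, which encodes Nocturnin, had 13.8, 17.6, 11.4, 9.1 and 11.8 TPM. It alone of the 66 reached 1.5-fold between a methylated form and its native form, at 11.4 against 17.6 TPM for let-7a. Of all genes, 2.39% were lower by at least 1.5-fold in that comparison, and the NOCT difference (-0.58) lay at the limit itself. The 15 nonsense-mediated decay genes had medians of -0.02, -0.06, 0.11 and 0.0 in the 4 comparisons with the control. The 15 sequence-specific adaptors, RNA-binding proteins such as ZFP36 and the Pumilio proteins, were all lower with methylated than with native miR-17, with a median of -0.17, beside 69.0% and a median of -0.09 for all genes, and 11 of 15 were lower after median centring.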

How the data were processed

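The authors deposited TPM values per gene, rounded to 1 decimal, in 1 column for each of the 5 libraries. Per the labels' protocols, RNA was extracted with Isogen and sequenced from stranded, ribosomal RNA-depleted TruSeq libraries. Per the submitters' processing notes the build was hg19, while for aligner and counter the tool is not given in the sources used here. TPM sums to nearly the same total in every library, so the depth is unknown. Python 3.11.15 with pandas 2.3.3 was used to take differences of log2(TPM + 1), with a pseudocount of 1 and a minimum mean of 1 TPM. The pseudocount understates the change of low genes. No test was run: each group has 1 library, and setting the miR-17 pair against the let-7a pair joins different transfections, so it is given as values. The script was tested on simulated data. The genes, complexes and lists were chosen with earlier results of these data known. Named genes were all 50 members, in full for the 5 highest and 5 lowest of each comparison, for those past 1.5-fold, for paralog pairs and for genes with an 8mer or at least 2 sites. Seed sites and 3′ UTR lengths came from GENCODE 29, on another build, so no coordinates of genes are given. Of the 50 genes 49 were matched by identifier and 1, DCP1A, by symbol. The alternatives were pseudocounts of 0.1 and 5, no filter or a mean of at least 5 TPM, 2 scalings and another reference. Some site sequences are not reported here.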

Additional observations from a re-analysis of the deposited data

How the results depend on the processing

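No paired analysis was possible because each group holds 1 library. No library could be left out for the same reason. The median difference of the 50 genes moved by less than 0.1 (log2) in every comparison under each alternative run. It changed sign with values near 0 for native let-7a against the control (-0.004 to 0.03) and for methylated against native miR-17 (-0.07 to 0.02). Leaving out the filter or asking for a mean of at least 5 TPM could change no value of the 50 genes. Their lowest mean was 9.16 TPM (CNOT6L), so these 2 settings check nothing here. Some counts of genes past the size limit moved by over 1.5 times. The shares of all genes past the limit under these alternatives are not given. The moves are therefore not read as particular to the 50 genes. With the other microRNA pair as reference, native let-7a had 0 lower and 4 higher genes (2 and 8 against the control), methylated let-7a 3 lower (1), native miR-17 3 lower and 1 higher (6 and 10), and methylated miR-17 1 higher (10). Methylated let-7a against the control had 0 lower with a pseudocount of 5, with rescaling without mitochondrial and ribosomal protein genes and with median centring, and 5 higher (3) with a pseudocount of 0.1, with that rescaling and with centring. Methylated against native let-7a had 1 lower (2) with a pseudocount of 5, with the rescaling and with centring. Native miR-17 against the control had 6 higher (10) with a pseudocount of 5. Several of these genes lie at the limit itself, such as EXOSC9 and DIS3L. The number of genes with a seed site, 9 for let-7a and 17 for miR-17, was the same when any annotated 3′ UTR was searched. Depth could not be assessed from TPM.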

Other observations

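The PARN, PAN2 and EXOSC5 values that stood apart were those of the control library, which alone serves as reference for 4 of the 6 comparisons. With the other microRNA pair as reference, 0 of these 3 genes passed the size limit in any microRNA library. This count largely follows from naming them for a control value that stood apart, so no conclusion is drawn from it. EXOSC8 and LSM3, also lowest in the control, did pass the limit. Both were below the miR-17 pair with methylated let-7a (-0.44 and -0.32). LSM3 was also above the let-7a pair with methylated miR-17 (0.33). CNOT6L, DCP1A and PABPC4 passed the limit in all 4 microRNA libraries. Each pair is here set against the mean of the other pair. The 4 values thus restate the same contrast of miR-17 with let-7a and are not separate agreement. Relative to the let-7a pair, methylated miR-17 had CNOT6L 1.63-fold, DCP1A 1.39-fold and PABPC4 1.35-fold lower. DCP1A and PABPC4 hold no miR-17 site in the 3′ UTRs searched, and CNOT6L holds 1.

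The methylated-minus-native differences of let-7a and miR-17 come from 4 separate libraries. Across the 50 genes their Spearman's rho was -0.22, and across all 14177 genes tested it was -0.17, given as a description across genes.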
